A study of Sus scrofa with 4 samples.

Results

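Long non-coding RNAs (lncRNAs) are transcripts that carry no recognised protein-coding frame, and many of them lie beside a coding gene. The 3081 loci described here were the rows that the deposited tables label lncRNA, of 22944 rows measured in FPKM, a level per length of the transcript and per size of the library. They were 3084 such rows less 3, LOC106509199, LOC100513133 and LOC106504875, which together held 5.004% to 7.47% of the reads of a library and were set aside. Each was placed by its position relative to the 16192 protein_coding rows of the same tables, on pig assembly Sscrofa11.1. A lncRNA was called divergent when a coding gene on the opposite strand started within 5 kb of its own start, which held for 849 loci. A further 580 overlapped a coding gene on the opposite strand, 156 overlapped one on the same strand, 242 lay within 5 kb without overlap, 713 lay 5 to 50 kb away and 523 over 50 kb away. The other 18 were on sequences that hold no coding row. The rule used positions and labels, but the tables hold no row that was at 0 in all 4 libraries. Annotated lncRNAs and coding genes without a read were therefore neither counted nor used as neighbours. Of 3029 loci compared with the RefSeq table of the assembly, 212 had a closer coding gene there. For 65 of these the distance went from over to within 5 kb.

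Divergent transcription is a common property of mammalian promoters. A CpG-rich promoter often lets RNA polymerase II initiate in both directions, which gives a coding transcript on one side and a short, mostly unstable or a stable non-coding transcript on the other. Some such lncRNAs are known to act on the gene beside them, others act elsewhere or are by-products of an active promoter.

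Primary preadipocytes from the subcutaneous fat of 5-day-old male Erhualian piglets, a Chinese breed, were grown to confluence (D0) and differentiated in culture. Dexamethasone, 3-isobutyl-1-methylxanthine and insulin were given from D0 to D2, insulin alone from D2 to D4, and growth medium afterwards, so that D2, D4 and D8 differ in medium as well as in time. RNA of 3 piglets was mixed in equal amounts at each stage, and each stage is 1 library. A difference between stages cannot be told apart from one between libraries, and with no replicates no test was possible. Values given for a gene in a row of 4 are those of D0, D2, D4 and D8, in that order. In such bulk RNA fewer cells of a type and less RNA per cell cannot be told apart.

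The labelled cell type was checked against marker genes. The summed level of 8 adipocyte markers was 119, 458, 1666 and 2045 FPKM at D0, D2, D4 and D8, and that of 6 preadipocyte or fibroblast markers was 2929, 4787, 5163 and 4471 FPKM. The sums were 1.16 to 2.65 FPKM for 5 endothelial markers, 2.997 to 7.80 for 4 blood and macrophage markers, 0.104 to 0.507 for 3 skeletal muscle markers and 5.19 to 26.3 for 4 epithelial markers, with CDH5, VWF, PTPRC, MYOG and CKM under 0.1 FPKM in every library. The libraries held 54128151 to 75387428 counted reads, a number recovered from the FPKM values of single-exon small RNAs. The annotated lncRNAs held 0.903% to 1.03% of these reads. As FPKM counts fragments, a read here is a counted fragment, and the library totals above are not numbers of mapped reads.

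Annotated lncRNAs were low in these cells, and those close to the start of a coding gene reached 1 FPKM in a larger share than those far from any. A gene is called reliably expressed here when it reached 1 FPKM in at least 3 of the 4 libraries. This held for 205 of the 3081 lncRNAs (6.65%), for 9191 of the 16192 coding rows (56.8%) and for 7.82% of 1625 intergenic and 10.5% of 906 antisense lncRNAs newly assembled from these libraries. The 205 include 41 loci that carry the symbol of a coding gene, and without such loci the share was 164 of 3026 (5.42%). The median annotated lncRNA had 0.0281, 0.0269, 0.0351 and 0.0364 FPKM at the 4 stages, and 1319 of the 3081 were above 0 in all 4 libraries. In the divergent class 94 of 849 (11.1%) were reliably expressed and the medians were 0.103, 0.123, 0.144 and 0.123 FPKM. In the class over 50 kb from a coding gene 7 of 523 (1.34%) were reliably expressed and the medians were 0.00218, 0.00130, 0.00613 and 0.00950 FPKM. The lncRNAs within 5 kb but not divergent stood close to the divergent ones by this share, with 28 of 242 (11.6%), although their medians of 0.0261, 0.0329, 0.0317 and 0.0319 FPKM were lower. Overlap with a coding gene went with lower shares, 21 of 580 (3.62%) on the opposite strand and 7 of 156 (4.49%) on the same strand. A divergent lncRNA was above 0 in 78.9% to 87.5% of cases depending on the library, and one over 50 kb away in 50.9% to 60.6%.

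Within the divergent class the level went with the distance between the starts, whose median was 172 bp. Of the 289 lncRNAs that started within 100 bp of the coding start, 41 (14.2%) were reliably expressed, and of the 191 at 101 to 250 bp 30 (15.7%) were. The share was 8 of 78 (10.3%) at 251 to 500 bp, 8 of 102 (7.84%) at 501 to 1000 bp, 5 of 80 (6.25%) at 1001 to 2000 bp and 2 of 109 (1.83%) at 2001 to 5000 bp. The share was thus lower at each step beyond 250 bp. By orientation, 568 pairs stood head to head without overlap, of which 77 (13.6%) had a reliably expressed lncRNA, while in 281 pairs the 5′ ends overlapped, of which 17 (6.05%) did. The counting of reads by strand is not given in the sources used here, although the library kit keeps the strand. Reads of overlapping genes could therefore not be told apart with certainty, and values of overlapping pairs are less certain than those of pairs that stand apart. The loci at the edge of the 5 kb limit were near 0 on both sides of it. Just inside, LOC110261051 started 4905 bp from EPS8L1 with 0.125, 0.103, 0.0995 and 0.0631 FPKM at the 4 stages, and LOC110257762 started 4935 bp from SH3KBP1 and was above 0 at D4 alone, with 0.0339 FPKM. Just outside, LOC106509672 started 5021 bp from a coding start on the opposite strand, with PSPH as its nearest coding gene, and had 0.0544, 0.149, 0.0552 and 0.265 FPKM, and LOC110259368 started 5015 bp from GNA11 and reached 0.0101 FPKM at most.

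**Figure D1:**
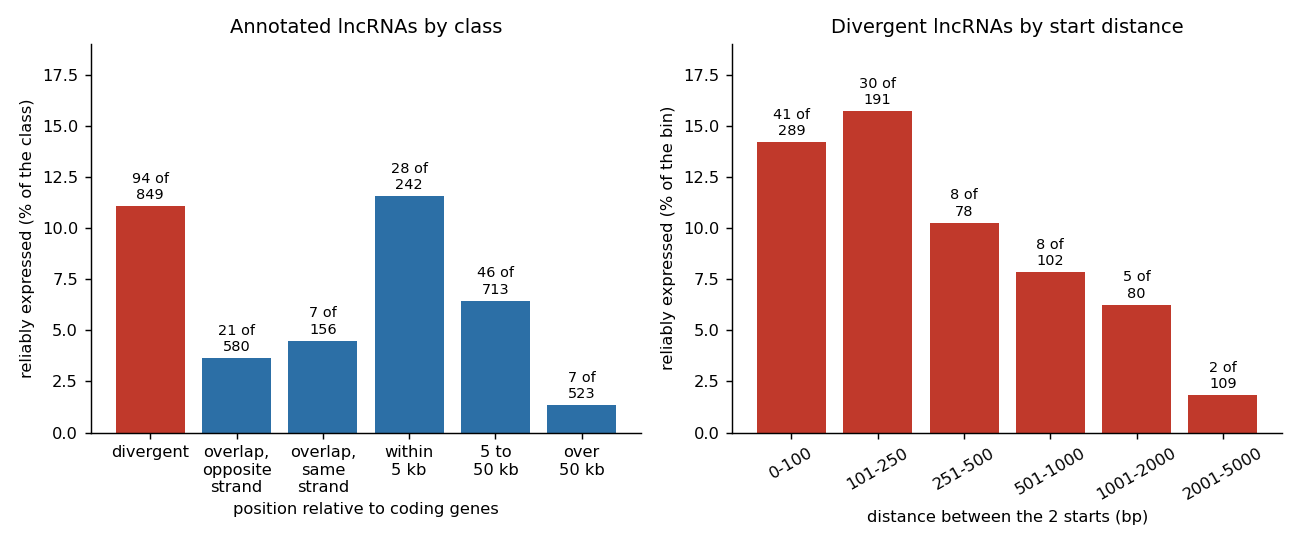
Share of annotated lncRNAs that reached 1 FPKM in at least 3 of 4 libraries, in percent, by position class (left) and, for divergent lncRNAs (red), by the distance between the lncRNA start and the coding start in bp (right). Numbers over the bars are reliably expressed of all loci. The share was 11.1% in the divergent class, 1.34% over 50 kb, against 15.7% at 101 to 250 bp and 1.83% at 2001 to 5000 bp.

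The coding genes opposite divergent lncRNAs were mostly measured well: 604 of the 849 lncRNAs (71.1%) faced a reliably expressed coding gene, against 56.8% over all coding rows. The 849 lncRNAs faced 846 different coding genes, and 6 of the lncRNAs shared their neighbour with another. Where the neighbour averaged under 0.1 FPKM, 2 of 73 lncRNAs (2.74%) were reliably expressed. The share was 11 of 147 (7.48%) opposite genes at 0.1 to 1 FPKM, 33 of 331 (9.97%) at 1 to 10 FPKM, 44 of 259 (16.99%) at 10 to 100 FPKM and 4 of 39 (10.3%) at 100 FPKM or more. The levels of lncRNA and neighbour had a Spearman correlation of 0.293 over all 849 pairs and of -0.0153 over the 81 pairs in which both were reliably expressed. These correlations run across loci of the same 4 libraries and are given as a description. In these 81 pairs the coding gene was the higher of the 2 by a median of 4.04 times per length, and the lncRNA was the higher in mean level in 15 and in every library in 10. In another 13 pairs the lncRNA was reliably expressed and the coding gene was not. They include LOC110257274 beside SEMA5A, a membrane-bound guidance protein. LOC110257274, named after its values were seen, had 5.26, 3.61, 4.53 and 6.10 FPKM.

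The most abundant annotated lncRNAs were a few loci far above the rest. LOC100621455 (chr6:85533523-85536155), which lies 4082 bp past PHACTR4 on the same strand, had 1198, 1867, 1080.3 and 1489.7 FPKM, with 118369 or more reads in 3 libraries and 117920 at D4. LOC100525935 (chr8:105197311-105198419), 169 bp from PRSS12, a neuronal protease gene that was under 0.2 FPKM in every library, had 362, 559, 512 and 632 FPKM. LOC100624113 (chr7:23933356-23935759) overlaps HSPA1L, a heat shock protein gene, on the opposite strand and had 112, 259, 198 and 190.3 FPKM, lowest at D0. Of the 8 highest loci 2 were divergent. LOC100521518 (chr13:31153614-31156339) starts 14 bp from CCDC51, a gene for a mitochondrial membrane protein, and had 194, 215, 214 and 162 FPKM, while CCDC51 had 10.1, 11.1, 11.3 and 8.32 FPKM. LOC110255511 (chr9:116145161-116149133) starts 101 bp from ZBTB37, a zinc finger gene, and had 109, 132, 107 and 99.9 FPKM, against 1.94, 1.48, 1.70 and 1.61 FPKM for ZBTB37. Both of these lncRNAs were steady, with all stages within 1.33 times of each other for LOC100521518 and 1.32 times for LOC110255511. In the human genome the locus head to head with ZBTB37 is GAS5, a host gene of small nucleolar RNAs, but the deposited tables give the pig locus no such name and no sequence was compared.

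The other 3 of the 8 highest carry the symbol of a coding gene although the tables and the RefSeq table of the assembly label them lncRNA. SEM1, a proteasome subunit in other mammals, had 444, 382, 294 and 348 FPKM. EIF4B, a translation initiation factor, had 199.8, 235, 278 and 228 FPKM, and POMP, a proteasome assembly factor, had 150.5, 138, 118 and 130.3 FPKM. In all 55 of the 3081 loci carry such a symbol, and 41 of them (74.5%) were among the 205 reliably expressed loci. The shares by class and by distance given above include these loci and were not recounted without them. Whether such rows measure the messenger RNA of that gene was not tested. Without the loci with such a symbol, 37 of 164 lncRNAs differed at least 2-fold in D2 vs D0, 13 in D4 vs D2, 23 in D8 vs D4, 42 in D4 vs D0 and 20 in D8 vs D0, against 42, 14, 26, 47 and 21 of all 205.

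Each stage was compared with the next, and D4 and D8 with D0, to see which of the 205 reliably expressed lncRNAs differed at least 2-fold on log2(FPKM + 0.01). D2, D4 and D8 share the D0 library in the comparisons with it. With 1 library a stage a count of differences has no test, so each is set beside the share over all 9929 reliably expressed rows, which include the lncRNAs. In D2 vs D0 23 lncRNAs were higher and 19 lower (11.2% and 9.27%), against 7.06% and 10.7% of all rows and 17.8% in either direction, and of the 94 divergent ones 12 were higher and 6 lower. In D4 vs D2 10 lncRNAs were higher and 4 lower (4.88% and 1.95%), against 4.53% and 1.49% of all rows and 6.02% in either direction, and of the 94 divergent ones 4 were higher and 1 lower. In D8 vs D4 9 lncRNAs were higher and 17 lower (4.39% and 8.29%), against 4.75% and 10.4% of all rows and 15.2% in either direction, and of the 94 divergent ones 2 were higher and 10 lower. In D4 vs D0 32 lncRNAs were higher and 15 lower (15.6% and 7.32%), against 10.7% and 9.57% of all rows and 20.2% in either direction, and of the 94 divergent ones 18 were higher and 4 lower. In D8 vs D0 11 lncRNAs were higher and 10 lower (5.37% and 4.88%), against 3.87% and 4.82% of all rows and 8.69% in either direction, and of the 94 divergent ones 7 were higher and 4 lower. The widest gap between the divergent lncRNAs and the background was in D4 vs D0, where 19.1% of them were higher and 4.26% lower, with 12.6% and 9.91% in the 111 others and 10.7% and 9.57% over all rows. In D8 vs D4 2.13% of the divergent lncRNAs were higher and 10.6% lower, against 4.75% and 10.4% of all rows. The lower share was thus near that of all rows, which also leaned lower.

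All of these 2-fold lncRNAs had a 95% counting interval of the ratio that left out 0, and the interval lay wholly beyond 2-fold for 18 in D2 vs D0, 5 in D4 vs D2, 11 in D8 vs D4, 25 in D4 vs D0 and 10 in D8 vs D0. These intervals cover counting error only, not the spread between cultures or pools. In its poorest library a reliably expressed lncRNA had 4 to 117920 reads with a median of 275. Over any of the 5 comparisons 77 of the 205 lncRNAs (37.6%) differed at least 2-fold, against 31.8% of all reliably expressed rows, and 35 of the 94 divergent ones (37.2%) did. The 222 reliably expressed newly assembled lncRNAs were 2-fold off in 39.2% of cases in D4 vs D0, against 22.9% of the annotated ones. A locus with an FPKM under 1 in 1 library could pass the filter through the other 3, and a locus that passed in this way had to differ between stages.

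The balance of higher and lower lncRNAs moved with the pseudocount, the filter and the scaling. With a pseudocount of 1 the 205 lncRNAs were 10 higher and 9 lower in D4 vs D0, and 7 higher and 9 lower in D2 vs D0. With a filter of at least 1 on the mean FPKM, 43 of 242 were higher and 29 lower in D4 vs D0. In D2 vs D0 these were 32 and 32. Direction in the divergent class was not counted under these settings. The reliably expressed divergent lncRNAs had a median of 2.58 FPKM, against 7.84 over all reliably expressed rows. Median-of-ratios scaling over coding rows moved the median of all rows by -0.12 on the log2 scale in D4 vs D2, 0.23 in D8 vs D4 and 0.15 in D8 vs D0, and scaling by the sum of coding FPKM moved it by 0.11 in D2 vs D0. With median-of-ratios scaling the lncRNAs were 8 higher and 12 lower in D4 vs D2, 14 higher and 9 lower in D8 vs D4 and 17 higher and 9 lower in D8 vs D0. With the sum of coding FPKM they were 26 higher and 14 lower in D2 vs D0 and 8 higher and 7 lower in D4 vs D2. For the divergent lncRNAs higher loci outnumbered lower ones in D4 vs D0 under both, with 16 higher and 6 lower of 95 under the first and 19 higher and 4 lower of 93 under the second. In D8 vs D4 they were even under median-of-ratios scaling, with 4 higher and 4 lower, and in D4 vs D2 they turned to 3 higher and 8 lower.

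**Figure D2:**
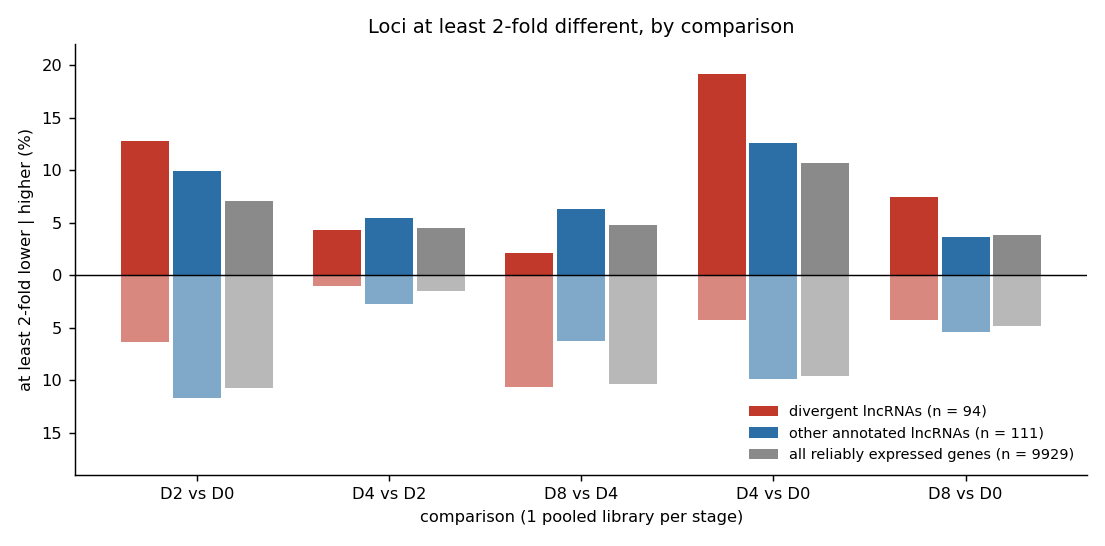
Share of loci at least 2-fold higher (solid bars, upwards) and lower (pale bars, downwards) in 5 comparisons, in percent, for divergent lncRNAs (red), other annotated lncRNAs (blue) and all reliably expressed rows (grey), with 1 pooled library per stage and values as deposited. In D4 vs D0 19.1% of divergent lncRNAs were higher and 4.26% lower, against 10.7% and 9.57% of all rows.

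The stage of the highest level needs no fold limit. Of the 94 divergent lncRNAs 19, 24, 36 and 15 were highest at D0, D2, D4 and D8, while of their 81 reliably expressed coding neighbours 36, 13, 24 and 8 were. Over all reliably expressed rows the shares were 36.4%, 17.3%, 36.4% and 9.84%. So 20.2% of the divergent lncRNAs and 44.4% of the genes opposite them had their highest level at confluence. The share was 25.2% in the 111 other annotated lncRNAs, near that of the divergent ones. A locus under 1 FPKM at D0 passed the filter through the later stages and could not be highest at D0. Other scalings were not applied to the stage of the highest level. These differences were not tested.

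LncRNAs that were lower during differentiation were led by LOC100514834 (chr4:75294209-75296319), which lies over 50 kb from its nearest coding gene IMPAD1, a Golgi phosphatase gene. It had 39.5, 1.01, 0.0889 and 8.63 FPKM, from 2254, 42, 5 and 353 reads, so it was near 0 at D4 and partly back at D8 (log2 ratio -8.64, 95% counting interval -10.42 to -7.57 in D4 vs D0). IMPAD1 had 55.8, 78.3, 81.7 and 45.3 FPKM and no such dip. LOC110256294 (chr13:71762284-71779903) starts 249 bp from LOC100516295 and had 32.4, 14.9, 7.67 and 15.7 FPKM (log2 ratio -2.08, 95% counting interval -2.22 to -1.95 in D4 vs D0), the lowest value again at D4. These 2 loci were the only ones of the 205 at least 2-fold lower than D0 at all 3 later stages, against 220 of all 9929 reliably expressed rows. With median-of-ratios scaling, however, LOC110256294 was at -0.90 in D8 vs D0 and no longer past 2-fold. The locus labelled CDK6 (chr9:72510858-72765631), named for a kinase that drives entry into S phase, had 8.47, 1.40, 2.34 and 4.73 FPKM (log2 ratio -2.59, 95% counting interval -2.70 to -2.51 in D2 vs D0), lowest in the hormone cocktail. LOC100737961 (chr4:34328428-34332552) beyond AZIN1, an inhibitor of antizyme, had 3.63, 1.48, 1.17 and 3.81 FPKM, and LOC102159985 (chr9:133141284-133144534), 26 bp from DIEXF, had 2.44, 1.59, 0.796 and 2.61 FPKM. Both were low at D4 and back near the D0 level at D8. LOC100514834 and LOC102159985 were each under 1 FPKM at D4 alone, so D4 as their lowest stage followed from the filter, though not the size of the dip.

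7 of the 205 lncRNAs were at least 2-fold above D0 at every later stage, against 255 of all 9929 reliably expressed rows, and 4 of the 7 were divergent. LOC100522935, LOC102158914, LOC102168178, LOC110260979 and LOC102167899 were under 1 FPKM at D0 and passed the filter through the later stages alone. For these loci a level above D0 at every later stage was fixed by the filter, though not its size. LOC100522935 (chr7:28765547-28766251) starts 58 bp from ZNF451, a SUMO ligase gene, and had 0.479, 1.79, 1.81 and 2.09 FPKM (log2 ratio 2.10, 95% counting interval 1.42 to 2.89 in D8 vs D0), with one step between D0 and D2 and little change after it. ZNF451 itself had 4.69, 5.78, 6.38 and 4.85 FPKM. LOC106506626 (chr1:92272630-92286786) starts 35 bp from SLC17A5, the lysosomal sialic acid exporter, and had 1.90, 6.57, 5.34 and 4.45 FPKM (log2 ratio 1.78, 95% counting interval 1.33 to 2.26 in D2 vs D0), while SLC17A5 stayed at 4.52, 4.50, 4.45 and 4.56 FPKM. LOC102158914 (chr15:81804907-81806589) overlaps the 5′ end of LNPK, a gene of endoplasmic reticulum junctions, and had 0.409, 1.14, 1.51 and 2.51 FPKM (log2 ratio 2.59, 95% counting interval 2.01 to 3.28 in D8 vs D0), against 12.8, 8.68, 10.3 and 10.9 FPKM for LNPK. In these 3 pairs the coding gene differed from D0 by less than 2-fold at every stage. The fourth divergent locus was SMIM4, described with its neighbour below.

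The other 3 were not divergent. LOC102168178 (chr9:20034334-20036505) lies over 50 kb from EED, a subunit of the Polycomb repressive complex, and had 0.888, 2.24, 2.77 and 4.94 FPKM (log2 ratio 2.46, 95% counting interval 1.95 to 3.04 in D8 vs D0), while EED had 9.21, 8.74, 8.43 and 8.94 FPKM. LOC110260979 (chr6:44052952-44060764) overlaps the glycolytic enzyme gene GPI on the same strand and had 0.617, 1.62, 2.72 and 1.37 FPKM, highest at D4, against 67.6, 61.3, 74.3 and 87.03 FPKM for GPI. LOC102167899 (chr6:50766518-50770096) overlaps LOC110260999 on the opposite strand and had 0.446, 1.17, 1.85 and 1.15 FPKM, also highest at D4.

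Other lncRNAs peaked or dipped at a single stage. Those under 1 FPKM at a single stage passed the filter through the other stages, so that stage was their lowest by the rule. LOC110256538 (chr1:273581438-273582827), 3611 bp from WDR5, a core subunit of histone H3 methyltransferases, had 1.04, 4.65, 2.77 and 0.445 FPKM, a peak at D2 of 4.45 times the D0 level. LOC100738157 (chr14:61667986-61678075), 39 bp from the splicing factor gene HNRNPF, had 1.24, 4.08, 1.72 and 0.774 FPKM, again highest at D2, while HNRNPF had 64.7, 74.4, 71.7 and 63.9 FPKM. LOC110259868 (chr3:7837654-7839654), 67 bp from TRIM4, and LOC102166382 (chr2:78612083-78617004), inside RNF130 on its strand, were the reverse, with D2 as the lowest stage. They had 1.73, 0.578, 2.10 and 1.73 FPKM and 1.74, 0.571, 1.83 and 1.35 FPKM at the 4 stages, the second from 50, 12, 52 and 28 reads. LOC102166164 (chr3:80329969-80331234) overlaps the 5′ end of USP34, a deubiquitinase gene, and had 1.09, 1.18, 2.58 and 0.184 FPKM, a ratio of D8 to D4 that rests on 4 reads at D8 (log2 ratio -3.74, 95% counting interval -5.72 to -2.39). LOC102158687 (chr9:72079729-72161280), 142 bp from CYP51, the lanosterol demethylase of cholesterol synthesis, had 3.27, 2.91, 3.72 and 1.02 FPKM, lowest at D8 as was CYP51 with 97.6, 63.2, 67.9 and 56.5 FPKM. LOC102159434 (chr3:3547515-3552591), beyond FOXK1, had 4.90, 5.10, 2.32 and 4.58 FPKM, lowest at D4.

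**Figure D3:**
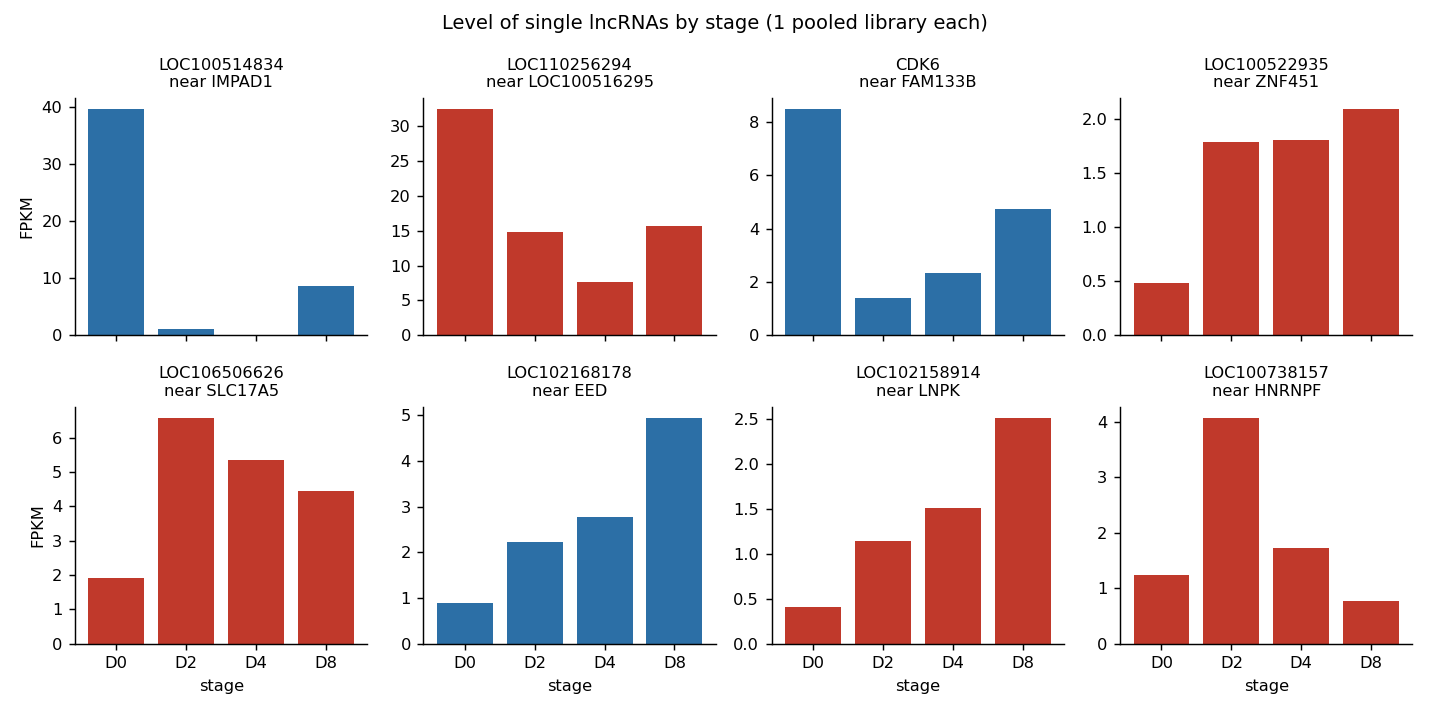
FPKM of 8 annotated lncRNAs (bars, linear axis from 0) at D0, D2, D4 and D8, with 1 pooled library per stage and no replicate error, for divergent loci (red) and others (blue), each titled with its coding neighbour. LOC100514834 had 39.5 FPKM at D0 and 0.0889 at D4, and LOC102168178 and LOC102158914 were highest at D8.

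Divergent pairs were then read together, to see whether the coding gene moved with the lncRNA. In 81 pairs both were reliably expressed. In 30 of these pairs the lncRNA differed at least 2-fold from D0 at some stage, and in 4 of the 30 the coding gene did so in the same direction at the same stage. No coding gene was 2-fold off in the opposite direction. Over all 81 pairs 16 coding genes were 2-fold off D0 at some stage, 12 of them in pairs whose lncRNA was not, so the share with a 2-fold coding gene was no larger where the lncRNA had moved. In D2 vs D0 17 lncRNAs were 2-fold off, 7 of their neighbours differed with the same sign at any size and 2 by 2-fold. In D4 vs D0 20 lncRNAs were 2-fold off, 8 of their neighbours differed with the same sign at any size and 3 by 2-fold. In D8 vs D0 11 lncRNAs were 2-fold off, 10 of their neighbours differed with the same sign at any size and 2 by 2-fold. Over all 81 pairs, at any size of the lncRNA's ratio, the signs were the same in 60.5%, 48.1% and 61.7% of pairs in these 3 comparisons. Pearson correlations of the log2 ratios over the 81 pairs were 0.127 in D2 vs D0, 0.183 in D4 vs D0 and 0.411 in D8 vs D0, a description across loci that share 2 libraries. Over the 20 pairs within 5 kb that were not divergent they were 0.479, 0.490 and 0.384. In D8 vs D0 the median neighbour of the 81 divergent lncRNAs was 0.27 off D0 on the log2 scale, in either direction. FABP3 was at 4.64 and PLSCR4 at 2.57, and how far these pairs carry the 0.411 was not tested. The second nearest coding gene was reliably expressed beside 59 of the divergent lncRNAs, and among these it was 2-fold off in the lncRNA's direction for 0 lncRNAs in D2 vs D0, 1 in D4 vs D0 and 0 in D8 vs D0, and in the opposite direction for 2, 1 and 1. Its sign was that of a 2-fold lncRNA in 8 of 11 cases in D2 vs D0, 9 of 14 in D4 vs D0 and 2 of 8 in D8 vs D0, so the nearest gene shared the sign in a larger part of the pairs in D8 vs D0 alone. Of the 69 pairs outside the divergent class, 25 had a 2-fold lncRNA and 5 of these a 2-fold coding gene in the same direction. The pairs that lay within 5 kb without being divergent gave 3 of 8.

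Among the 81 divergent pairs with both reliably expressed, the one with the largest joint difference was LOC106510641 and FABP3, a fatty acid binding protein that carries fatty acids in the cytosol. LOC106510641 (chr6:87950805-87951743) starts 97 bp from FABP3 and had 1.44, 1.68, 4.79 and 6.61 FPKM, from 69, 59, 227 and 228 reads, so that D0 and D2 were low and D4 and D8 high (log2 ratio 2.19, 95% counting interval 1.81 to 2.61 in D8 vs D0). FABP3 had 153, 638, 3254 and 3805 FPKM, a log2 ratio of 4.64, and had already passed 2-fold at D2, where the lncRNA had not. LOC106505711 (chr13:86573745-86624936) starts 80 bp from PLSCR4, a phospholipid scramblase gene, and had 0.694, 1.27, 1.82 and 2.66 FPKM, from 24, 32, 62 and 66 reads (log2 ratio 1.92, 95% counting interval 1.24 to 2.68 in D8 vs D0). PLSCR4 had 3.46, 28.5, 27.6 and 20.6 FPKM, highest at D2, while the lncRNA was highest at D8. LOC106505711 was under 1 FPKM at D0 alone, so a higher level at the later stages was fixed by the filter. SMIM4 (chr13:34679623-34687171), a locus with the symbol of a small mitochondrial protein, starts 93 bp from NT5DC2, a gene of the nucleotidase family, and had 5.95, 13.3, 17.2 and 15.5 FPKM (log2 ratio 1.53, 95% counting interval 1.44 to 1.62 in D4 vs D0). NT5DC2 had 5.89, 11.8, 17.2 and 7.48 FPKM, so SMIM4 and NT5DC2 lay close at D0, D2 and D4 and parted at D8. The fourth pair was lower at D2, just past 2-fold for the lncRNA. This lncRNA was under 1 FPKM at D2 alone, so D2 as its lowest stage followed from the filter. LOC106509620 (chr3:4090496-4097601), 113 bp from the cytoskeletal actin gene ACTB, had 1.01, 0.486, 1.18 and 1.84 FPKM, from 63, 22, 72 and 82 reads (log2 ratio -1.05, 95% counting interval -1.83 to -0.34 in D2 vs D0), and ACTB had 561, 117, 174 and 267 FPKM. With a pseudocount of 0.1 or with scaling by the sum of coding FPKM LOC106509620 was no longer 2-fold off, at log2 ratios of -0.93 and -0.94. At D4 and D8 this lncRNA was above its D0 level and ACTB below. The adipocyte markers moved beside these pairs with the sums given above, and their part in the result was not tested. All 8 were higher at D8 than at D0, although LEP only just, with 0.291, 0.156, 0.0269 and 0.314 FPKM.

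**Figure D4:**
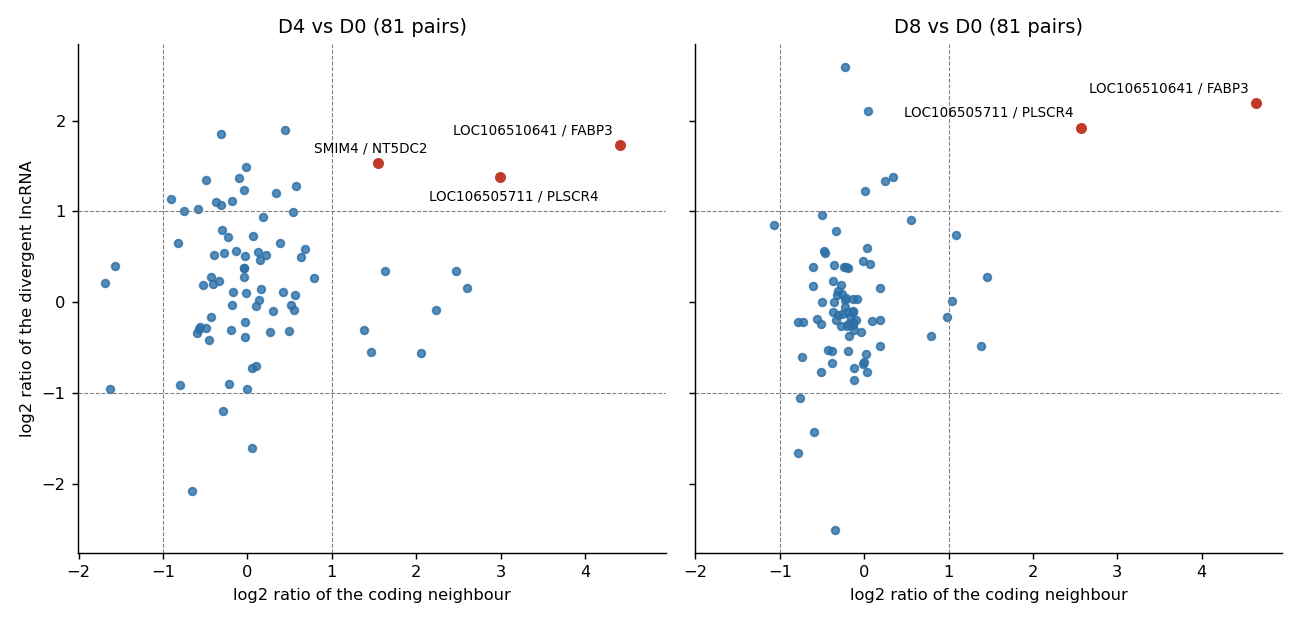
Log2 ratio of the divergent lncRNA (vertical axis) against that of its coding neighbour (horizontal axis) in D4 vs D0 (left) and D8 vs D0 (right), one point for each of 81 pairs with both reliably expressed. Dashed lines mark a 2-fold difference and red points are pairs beyond it on both axes in the same direction, FABP3, PLSCR4 and NT5DC2 at D4 and FABP3 and PLSCR4 at D8.

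In the 12 pairs where the coding gene alone was 2-fold off D0, the lncRNA differed from D0 by less than 2-fold, in some pairs only just. These pairs are named after their values were seen. Opposite DUSP6, a phosphatase that dampens ERK signalling and was 2.23 above D0 on the log2 scale at D4, LOC110260801 had 2.80, 3.44, 2.65 and 2.82 FPKM. Opposite GFPT2, an enzyme of hexosamine synthesis at 2.47, LOC102163100 had 1.04, 1.46, 1.32 and 1.74 FPKM. Opposite RPIA, an enzyme of the pentose phosphate pathway at 2.61, LOC102164763 had 1.39, 1.39, 1.56 and 1.08 FPKM. Opposite ACAA2, a thiolase of mitochondrial fatty acid oxidation at 1.38, LOC102158467 had 12.3, 14.5, 9.94 and 8.79 FPKM. Opposite NUF2, a kinetochore gene at -3.04 in D2 vs D0 and -1.63 in D4 vs D0, LOC100518120 had 8.20, 7.98, 4.23 and 4.82 FPKM, with log2 ratios of -0.04 and -0.95, so it was lower at D4 and D8 but not at D2. The others were RMND5A, PTGR1, CA12, PTPN4, PDE6D, ORC1 and ZNF503.

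A list of 43 coding genes of adipocyte and lipid function was searched for lncRNAs beside them. For 16 of these genes an annotated lncRNA had it as nearest coding gene, and 7 of the genes had a divergent one, none of which was reliably expressed. In D2 vs D0 the counting interval lay above 0 for 5 of the 7 and below 0 for none, where over all 849 divergent lncRNAs it lay above 0 for 31.6% and below 0 for 18.4%. In D4 vs D0 it lay above 0 for 4 of the 7 and below 0 for none, against 30.4% and 17.3%. In D8 vs D0 it was 5 above and none below, against 21.1% and 17.9%. The lncRNAs of GPD1 and PLIN1, which overlap these genes, were among those above 0 in each of these comparisons. That of SREBF1, with 1 read at D0, was among them in D2 vs D0 and D8 vs D0. The list was chosen with earlier results of these data known. LOC102160718 (chr6:43086118-43089178) starts 234 bp from CEBPA, a transcription factor that drives terminal adipocyte differentiation, and had 0.123, 0.604, 1.17 and 0.685 FPKM, from 24, 86, 225 and 96 reads (log2 ratio 3.15, 95% counting interval 2.64 to 3.92 in D4 vs D0). CEBPA had 15.4, 95.3, 162 and 37.1 FPKM, lowest at D0 and highest at D4 as was the lncRNA, with D2 and D8 in the other order. LOC102163508 (chr5:16006878-16008530) starts 351 bp from GPD1, which makes the glycerol 3-phosphate used for triglycerides, and had 0.248, 0.916, 1.99 and 5.40 FPKM, from 13, 35, 103 and 203 reads (log2 ratio 4.39, 95% counting interval 3.64 to 5.38 in D8 vs D0). GPD1 had 0.787, 5.08, 15.4 and 15.9 FPKM, so both were lowest at D0 and highest at D8, the coding gene with little difference between D4 and D8. The 5′ ends of this pair overlap, so that reads of GPD1 counted for the lncRNA could not be told apart from its own.

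The other 5 had at most 30 reads in any library. LOC106510160 (chr7:55249039-55256411), 1758 bp from PLIN1, the lipid droplet coat protein, had 0, 0.164, 0.136 and 0.157 FPKM from 0, 17, 19 and 16 reads, and PLIN1 had 2.28, 36.1, 215 and 90.3 FPKM. LOC102164647 (chr7:53890649-53907697), 91 bp from KLF15, a glucocorticoid-induced transcription factor, had 0, 0.475, 0.141 and 0.0805 FPKM from 0, 30, 12 and 5 reads, and KLF15 had 0.657, 5.20, 5.39 and 1.20 FPKM. Both lncRNAs were listed at 0 at D0, so that no fold is given, and that of KLF15 was highest at D2. The lncRNA of PLIN1 overlaps that gene, and the lncRNA of KLF15 stands apart from it. LOC110256136 beside SREBF1, a regulator of lipid synthesis, had 1, 20, 1 and 15 reads, and LOC106508153 beside HMGCS1, an enzyme of cholesterol synthesis, had 0, 3, 3 and 1 reads. LOC110257401 beside PCK1 had a single read, at D4. A difference at 3 reads or fewer was not detectable at this depth.

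**Figure D5:**
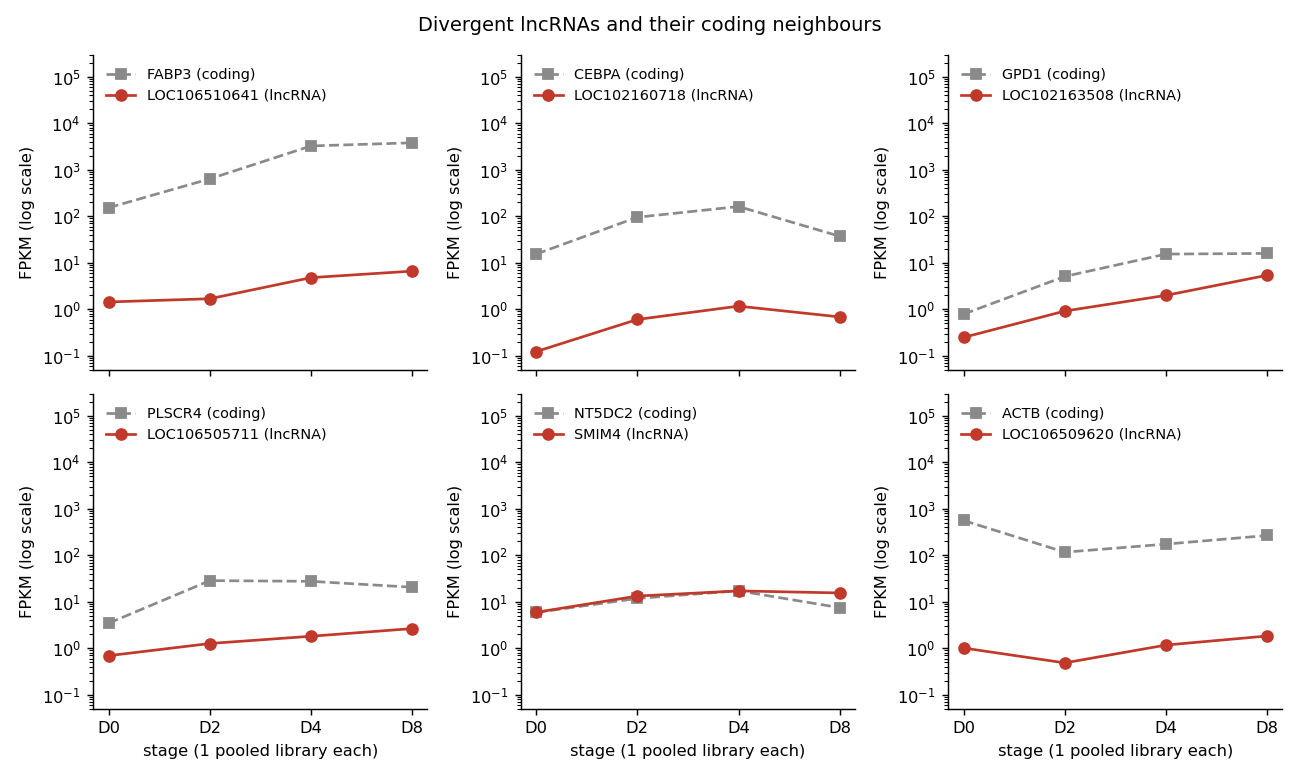
FPKM on a log scale of 6 divergent lncRNAs (red circles, solid line) and the coding genes opposite them (grey squares, dashed line) at D0, D2, D4 and D8, with 1 pooled library per stage and no replicate error. The lncRNA beside CEBPA went from 0.123 FPKM at D0 to 1.17 at D4 and that beside GPD1 from 0.248 to 5.40 at D8, while that beside ACTB was lowest at D2.

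Of the other lists, 18 genes of the glucocorticoid and cAMP response had 21 lncRNAs nearest to 12 of them, none reliably expressed. The 2 divergent ones were LOC102166710, 42 bp from the phosphatase gene DUSP1, with 0.139, 0.111, 0.0588 and 0.275 FPKM, and LOC102166695 beside PDE4D, a cAMP phosphodiesterase gene, with 1 read in all. Among 25 cell cycle genes 5 had a lncRNA beside them. LOC106507534 (chr5:66112377-66138172), 2198 bp from CCND2, the gene of cyclin D2, had 1.77, 0.198, 0.160 and 0.871 FPKM, from 257, 21, 23 and 91 reads, and was thus high at D0, low at D2 and D4 and between at D8 (log2 ratio -3.38, 95% counting interval -4.15 to -2.85 in D4 vs D0). CCND2 had 34.9, 42.98, 59.4 and 30.9 FPKM, highest at D4, where the lncRNA was lowest, although the 5′ ends of this pair overlap. LOC106509952 (chr4:12188207-12409059), 46082 bp from MYC, a growth-promoting transcription factor, had 3.09, 3.38, 3.83 and 3.16 FPKM, all within 1.24 times of each other, while MYC had 3.67, 10.3, 14.3 and 3.99 FPKM. Of 25 actin and matrix genes 7 had a lncRNA nearest to them and 1, ACTB, a reliably expressed one.

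Divergent lncRNAs at developmental transcription factors were mostly low. Of 168 such genes 47 had an annotated lncRNA nearest to them and 20 had a divergent one, of which 10 had at least 10 reads in every library. LOC102159203 (chr5:19291553-19293988), 23286 bp from HOXC4 and not divergent, had 2.23, 1.90, 2.39 and 3.02 FPKM, against 0.193, 0.282, 0.426 and 0.147 FPKM for HOXC4. In the HOXC cluster LOC106510294, 236 bp from HOXC8, had 0.150, 0.442, 0.377 and 0.203 FPKM (log2 ratio 1.27, 95% counting interval 0.91 to 1.76 in D4 vs D0), and LOC110260669 beside HOXC5 had 0.0521, 0.145, 0.157 and 0.105 FPKM. LOC106505784, 114 bp from TWIST2, a mesenchymal factor, had 0.456, 0.437, 0.696 and 0.391 FPKM. LOC102164998 beside EMX2 and LOC106505099 beside HOXB2 had 0.716, 0.517, 0.640 and 0.662 FPKM and 0.395, 0.432, 0.394 and 0.355 FPKM, and their counting intervals included 0 in the comparisons with D0 except for LOC102164998 in D2 vs D0, at -0.69 to -0.25. Over the 20 the interval lay above 0 for 7 (35%) and below 0 for 3 (15%) in D4 vs D0, near the 30.4% and 17.3% of all divergent lncRNAs.

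Among the 5 non-divergent lncRNAs that were 2-fold off D0 together with their coding gene were those of ELOVL5, CALD1 and USP53. LOC106504565 (chr7:46936090-47039870) lies 3145 bp from ELOVL5, an elongase of polyunsaturated fatty acids, on the same strand, and had 3.99, 7.49, 8.56 and 4.50 FPKM (log2 ratio 1.10, 95% counting interval 0.86 to 1.35 in D4 vs D0). ELOVL5 had 19.03, 41.1, 87.3 and 35.8 FPKM, with D4 highest for both. LOC102160748 (chr18:14295649-14298567) lies inside CALD1, which encodes the actin-binding protein caldesmon, on its strand, and had 7.15, 2.04, 5.002 and 5.61 FPKM (log2 ratio -1.81, 95% counting interval -1.99 to -1.64 in D2 vs D0). CALD1 had 899, 289, 293 and 601 FPKM, so it was about as low at D4 as at D2, while the lncRNA was higher again at D4. As both lie on 1 strand, their reads cannot be told apart by strand. LOC100515290, beside USP53 and named after its values were seen, had 127, 56.7, 49.7 and 134 FPKM, with log2 ratios of -1.35 in D4 vs D0 for the lncRNA and -2.60 for USP53. MEG3 (chr7:121656253-121660495), an imprinted lncRNA and the only one of 34 lncRNAs known by name in other mammals that the tables hold under that symbol, had 0.163, 0.277, 0.166 and 0.187 FPKM, from 17, 21, 17 and 14 reads, with every counting interval including 0.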

How the data were processed

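RNA from 4 stages (D0, D2, D4 and D8) was sequenced after removal of ribosomal RNA with a directional kit, 1 library per stage from a pool of 3 piglets. The authors aligned the reads to Sscrofa11.1 with HISAT2 2.0.5 and deposited FPKM per gene. The counter and its strand setting are not given in the sources used here. Read numbers were recovered from the steps of the FPKM values, using for each row the shortest length that made all 4 values whole, and 97.9% to 98.1% of the library totals were recovered. Where that length was too short the reads are undercounted and the interval is wider.

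LncRNAs were classed by start and strand against protein_coding rows. Ratios used log2(FPKM + 0.01), and 95% Clopper-Pearson counting intervals of the recovered reads, without the pseudocount, cover counting error only. The procedure was tested on simulated data. No p-value was computed, since each stage is 1 library. The text names the 8 most abundant lncRNAs, the 3 largest ratios each way per comparison among reliably expressed lncRNAs, divergent pairs that moved together (pairs that moved in opposite directions were sought and none was found), reliably expressed lncRNAs beside listed genes, lncRNAs named in other mammals, and the 2 loci on each side of the 5 kb limit, and other loci, among them the divergent lncRNAs of the lists under 1 FPKM, were chosen after their values were seen. The members and lists were chosen with earlier results of these data known. Alternatives changed the pseudocount, the filter, the scaling, the distance and the rows with coding symbols. Sequences were not used here, and 1 locus that the naming rule covers is not reported here. Python 3.11.15, pandas 2.3.3, numpy 2.4.6, scipy 1.17.1 and matplotlib 3.10.9 were used.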

Additional observations from a re-analysis of the deposited data

How the results depend on the processing

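The counts of lncRNAs at least 2-fold off were 42 in D2 vs D0, 14 in D4 vs D2, 26 in D8 vs D4, 47 in D4 vs D0 and 21 in D8 vs D0. With a pseudocount of 1 they were 16, 2, 10, 19 and 11. With no filter on low values they were 1428, 1257, 1402, 1514 and 1334 of 3081. With a filter on the mean FPKM, at least 1 over the 4 libraries, the first 4 were 64, 22, 47 and 72 of 242. With a limit of 0.5 FPKM 320 lncRNAs were reliably expressed, against 205. The other 35 of 50 alternatives stayed within 1.5 times of these counts, among them a pseudocount of 0.1, both scalings, other distances and the count without coding symbols, a choice added after seeing the data. The number of divergent pairs that moved together was 4, and 3 to 5 under the alternatives. Over the named lncRNAs, 68 ratios were recomputed under 4 alternatives each, and all 272 values had the same sign, 219 of them within the counting interval.

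No paired analysis was possible because each stage is 1 library and no test was run; leaving out a replicate was not possible either. The planned composition of the promoters was not run, as no sequence was used here. With 1 library a stage, the spread between cultures is unknown. A count of 0 allows up to 3 reads. The reads behind a reliably expressed lncRNA in its poorest library had a median of 275.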
